A study of Mus musculus with 10 samples.

Results

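The data concern 40 genes of DNA replication and mitosis, chosen by name, of which 38 were measured among the 29766 genes tested. A member counted as measured when a probe set (a group of probes read as 1 value) carried its symbol and no other in the platform annotation, and no member had more than 1 such probe set. Of 13 replication genes 12 were measured, and of 27 mitosis genes 26. The probe set of Mcm7, a helicase subunit, also names 2 microRNA genes inside it, Mir25 and Mir93, and no probe set was named Ccnb1, the gene of cyclin B1, so these 2 are not analysed here.

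One microarray per sample measured RNA levels in the cochlea of CBA/CaJ mice aged 6 months with normal hearing, a strain used to study hearing loss with age. All 10 samples came from singly housed mice, 5 with a running wheel in the cage (titled RW, here runners) and 5 without (here controls), and the labels give no other treatment and no allele. The labels say neither how far the mice ran nor whether different arrays hold different animals. P-values thus reflect only the scatter among these 10 samples, some or all of which could be technical. Inner ear tissue was ground whole, and in such bulk samples fewer cells of a type and less RNA per cell cannot be told apart.

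Before a cell divides it copies its DNA once. Cdc6 and Cdt1 load the MCM helicase onto replication origins, ribonucleotide reductase and thymidylate synthase make the building blocks, and Pcna holds the polymerases on the template. Cyclins with Cdk1 then start mitosis, Aurora and Polo kinases and motor proteins build the spindle, and a checkpoint holds the chromosomes until each is attached. Transcripts of the first set peak around S phase and those of the second in G2 and M phase, and both fall when cells leave the cycle. Hair cells and supporting cells of the adult mouse cochlea do not normally divide, whereas precursors in bone marrow do.

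Every one of the 38 measured genes had a lower mean in runners than in controls, but none passed the test. The differences, runner minus control on the log2 scale, ran from -0.33 for the spindle motor Kif11 to -0.099 for the passenger protein Birc5, with a median of -0.23. Over all genes the median difference was 0.00091, and 49.5% of genes lay below 0. The median was -0.21 for the replication genes and -0.23 for the mitosis genes. With limma, 0 of 38 members had an adjusted p under 0.05, against 2 of all genes (0.00672%), and the adjusted p of the members ran from 0.583 to 0.840. At an unadjusted p under 0.05, 17 members were lower (7 of 12 replication genes and 10 of 26 mitosis genes) and 0 higher. Of all genes 3.92% were lower and 3.21% higher at that threshold. The members' values go up and down together from array to array, so these 17 are not independent counts.

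**Figure D1:**
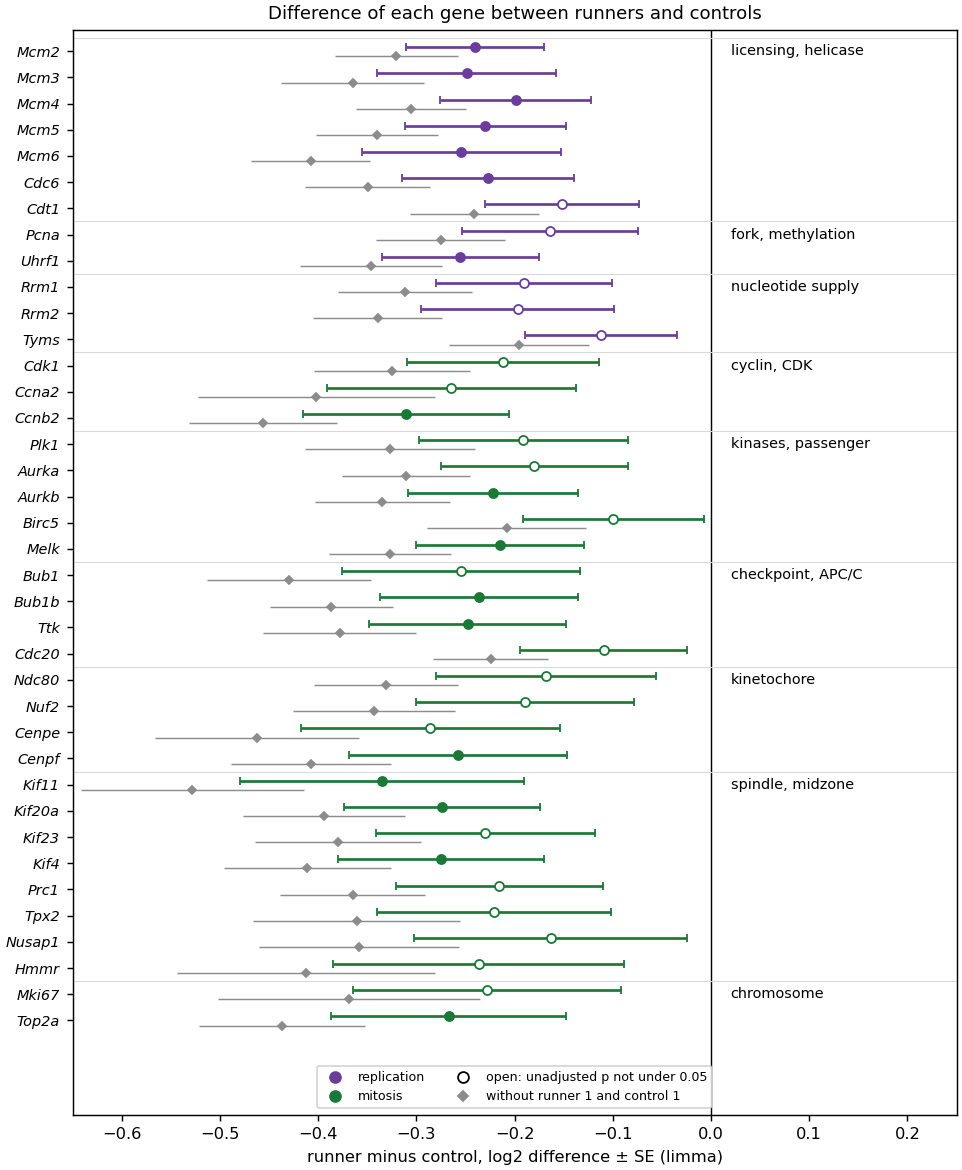
Difference between runners and controls (x axis, log2, with limma standard error) for each of the 38 genes (y axis, by role), filled where the unadjusted p was under 0.05, with grey diamonds for the same fit without runner 1 and control 1. All points lie left of 0, from -0.33 for Kif11 to -0.099 for Birc5, and each grey diamond lies further left than the coloured point above it.

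Averaged per array, the 38 genes stood at 7.03 ± 0.15 (SD, n = 5) in controls. In runners they stood at 6.81 ± 0.18 (SD, n = 5), and the means differed by -0.22 ± 0.11 (SE). Controls 1 to 5 had means of 6.78, 7.10, 7.05, 7.17 and 7.02, and runners 1 to 5 had 7.10, 6.71, 6.63, 6.86 and 6.74. Control 1 was thus as low as the runners and runner 1 as high as the controls, and the groups overlapped through these arrays. Runner 1 exceeded the other runners' mean by 0.37, and control 1 stood at -0.30 from that of the other controls. The difference was -0.29 without runner 1, -0.28 without control 1 and -0.35 without either.

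The order of the arrays recurred from gene to gene. Runner 1 was the highest runner in 37 of 38 members, all but the spindle gene Hmmr, and control 1 was the lowest control in 37, all but Cdk1. Over all genes the same arrays held these places in 33.9% and 19.2%. Control 1 lay below runner 1 in 38 of 38 members, against 56.0% of all genes. Runner 3 was the lowest runner in 23 members and runner 2 in 14, while control 4 was the highest control in 27. For no member did all 5 runners lie below all 5 controls, which 0.548% of all genes did. Runners 2 to 5 lay below controls 2 to 5 in 32 members, against 5.98% of all genes. The 6 others were Tyms, Ccna2, Birc5, Nusap1, Hmmr and Mki67. Runner 1 and control 1 are the end arrays of the members themselves, so leaving them out parts the members' groups by construction. The share of all genes is therefore not a like background, and nothing further follows from this count. With all arrays the members also varied more within a group than other genes: their median SD was 0.16 in controls and 0.20 in runners, against 0.098 and 0.13 over all genes. Among controls 2 to 5 and runners 2 to 5 they did not. There the median SD was 0.094 and 0.11 for the members, against 0.093 and 0.11 over all genes. Leaving out the members' own end arrays lowers their SD by construction, so no conclusion is drawn from this fall.

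**Figure D2:**
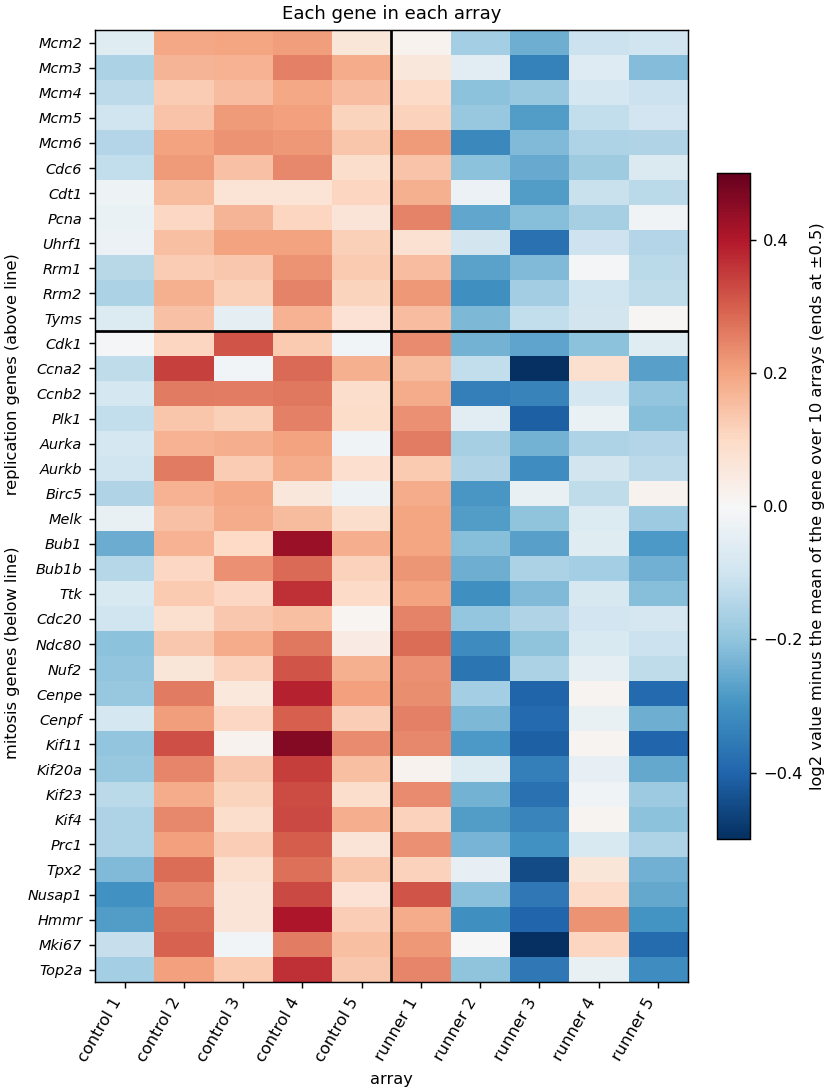
Colour shows the log2 value of each gene (rows, by role) in each array (columns) minus the gene's mean over the 10 arrays, with red above and blue below that mean and the scale ending at 0.5 in both directions. Runner 1 is red in every row or close to white, control 1 is blue or close to white, and runners 2 to 5 are mostly blue against mostly red controls 2 to 5.

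Left out together, runner 1 and control 1 changed the number of calls. In that fit 20 of 38 members had a limma adjusted p under 0.05, all lower in runners (8 replication and 12 mitosis genes), against 0.981% of all genes called lower, and the members' adjusted p ran from 0.0251 to 0.242. Without runner 1 alone, 0 members were called, 35 had an unadjusted p under 0.05 with a lower mean in runners and the smallest limma adjusted p was 0.0696. Of all genes, 0.185% were called lower without runner 1 and 8.59% were lower at the unadjusted threshold. Without both arrays 38 members and 9.07% of all genes were lower at that threshold. Both arrays were picked because earlier results of these same data named them, and each lies nearer the other group. Leaving them out therefore widens such a difference by its construction, and these calls support nothing further. Bglap, an osteoblast gene, passed the test over all 10 arrays. For it, runner 1 at 7.68 lay above the other runners (7.41 to 7.56) and below every control. Control 1 at 8.38 lay among the other controls (8.23 to 8.41). A gene called by these labels has groups that lie apart, so this placing was nearly fixed by the choice of gene. Nothing about these arrays follows from it.

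Promoter sequences show what the members share beyond their values. Replication genes are known targets of E2F factors, and many mitosis genes of the DREAM and MuvB complexes, which read a cell cycle homology region (CHR) beside CCAAT boxes bound by NF-Y. RefSeq promoter windows (assembly GRCm38.p6, 250 bases before to 50 after a start) were at hand for 35 of the 40 members, 38 windows in all, since Mcm7, Prc1 and Uhrf1 had 2 each. The letters searched on both strands were TTTCCCGC or TTTGGCGC for E2F, TTTGAA or TTTAAA for the CHR, and CCAAT for its box. Of these, TTTAAA reads the same on both strands, and overlapping matches of different motifs were all kept. E2F letters stood in 6 of 14 replication windows (42.9%), in 0 of 24 mitosis windows and in 1.565% of all 32851 windows. CHR letters stood in 4 of 14 replication windows (28.6%), in 20 of 24 mitosis windows (83.3%) and in 27.6% of all. CCAAT stood in 78.6% of replication windows, 79.2% of mitosis windows and 37.4% of all. A CHR and a CCAAT box together stood in 4 of 14, in 18 of 24 (75%) and in 10.7% of all. A match describes letters and not a bound site, and arrays like these do not measure binding.

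The 250 bases before the start are printed for 2 helicase genes with E2F letters and for 3 mitosis genes with CHR letters near the start, 5′ to 3′ on the strand of the gene, with capitals marking every match of the letters above or of their reverse complement. Mcm5 lies at chr8:75109259-75109508 (plus strand), Mcm6 at chr1:128359706-128359955 (minus), Ccnb2 at chr9:70421555-70421804 (minus), Cdk1 at chr10:69352913-69353162 (minus) and Kif11 at chr19:37376132-37376381 (plus).
Mcm5: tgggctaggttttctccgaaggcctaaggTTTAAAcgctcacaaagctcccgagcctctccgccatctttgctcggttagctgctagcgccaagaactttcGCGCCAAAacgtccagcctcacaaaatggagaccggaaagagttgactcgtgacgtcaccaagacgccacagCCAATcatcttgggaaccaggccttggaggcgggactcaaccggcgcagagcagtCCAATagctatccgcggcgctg
Mcm6: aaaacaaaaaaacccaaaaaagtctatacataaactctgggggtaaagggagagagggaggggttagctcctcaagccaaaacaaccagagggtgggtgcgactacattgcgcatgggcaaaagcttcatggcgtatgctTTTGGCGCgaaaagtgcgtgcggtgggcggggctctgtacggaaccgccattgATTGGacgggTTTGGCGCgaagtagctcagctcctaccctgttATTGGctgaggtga
Ccnb2: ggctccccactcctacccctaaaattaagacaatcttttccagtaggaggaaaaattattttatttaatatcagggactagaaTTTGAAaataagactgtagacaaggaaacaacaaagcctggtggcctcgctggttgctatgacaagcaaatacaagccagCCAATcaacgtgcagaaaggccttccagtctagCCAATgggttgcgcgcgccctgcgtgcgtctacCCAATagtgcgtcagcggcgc
Cdk1: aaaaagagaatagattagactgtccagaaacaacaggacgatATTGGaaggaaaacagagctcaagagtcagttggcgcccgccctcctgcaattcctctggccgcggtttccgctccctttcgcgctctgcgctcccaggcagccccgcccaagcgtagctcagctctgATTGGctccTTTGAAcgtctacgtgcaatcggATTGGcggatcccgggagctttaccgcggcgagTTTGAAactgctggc
Kif11: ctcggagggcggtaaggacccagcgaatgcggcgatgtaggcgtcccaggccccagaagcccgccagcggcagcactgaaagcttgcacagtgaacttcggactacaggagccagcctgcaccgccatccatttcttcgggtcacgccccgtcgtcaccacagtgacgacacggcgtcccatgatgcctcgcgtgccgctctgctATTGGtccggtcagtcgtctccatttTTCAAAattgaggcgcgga

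In Mcm6 the E2F letters TTTGGCGC begin 110 and 47 bases before the start and alternate with CCAAT boxes read on the other strand. In Mcm5 the same letters lie on the other strand, 149 bases before the start. Cdk1 has TTTGAA 71 and 15 bases before the start with CCAAT boxes on the other strand between and before them, and Kif11 has it on the other strand, 19 bases before the start. Ccnb2 has 3 CCAAT boxes spaced evenly, 87, 54 and 21 bases before the start, and TTTGAA 167 bases before and 5 bases after it. No searched letters were found in the windows of Tyms, Melk, Nuf2 and Nusap1.

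**Figure D3:**
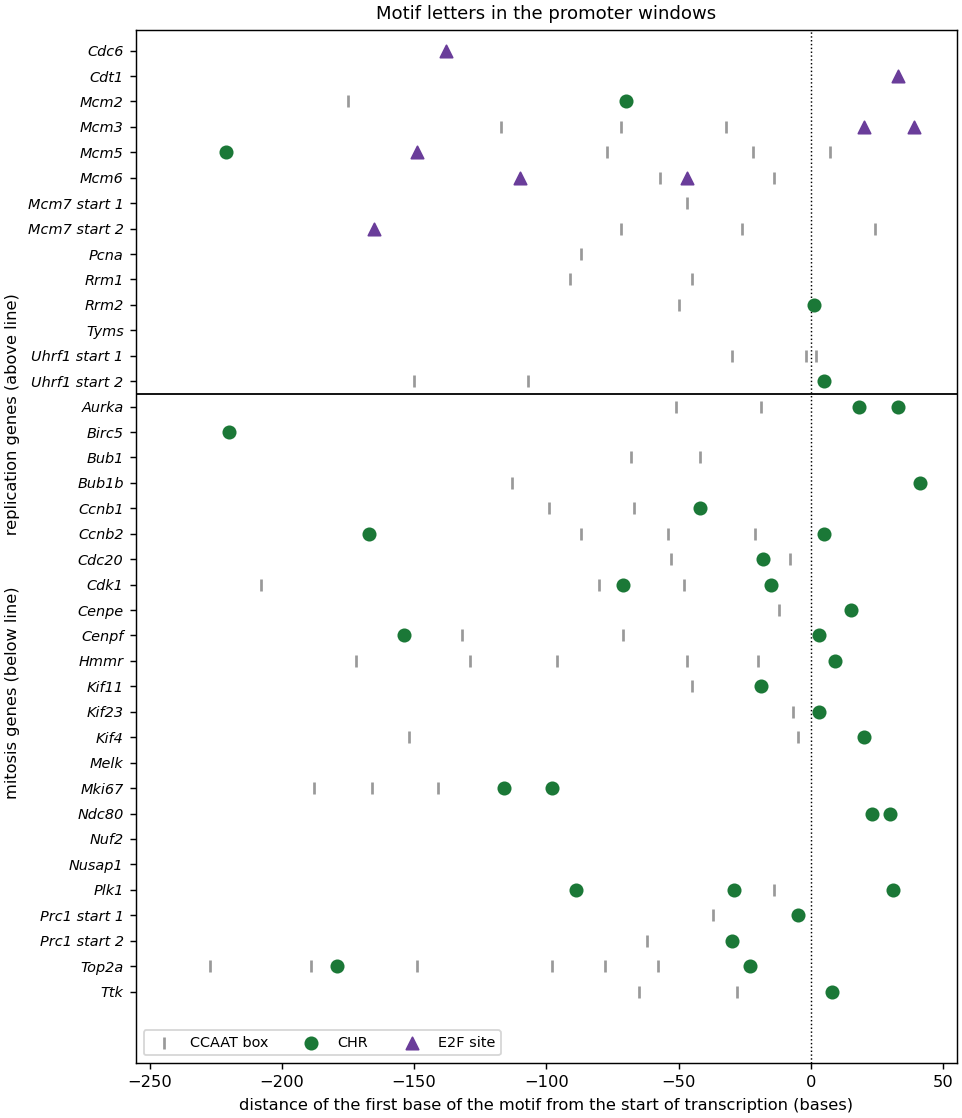
Position of the first base of each match (x axis, bases from the start of transcription) in each promoter window (rows), with triangles for E2F, circles for the CHR and ticks for CCAAT boxes. The triangles lie only in rows of replication genes, in 6 of 14 windows, and most circles lie below the dividing line, in 20 of 24 mitosis windows.

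The helicase and its loading factors were lower in runners by a median of 0.23, and 6 of the 7 measured had an unadjusted p under 0.05, the largest share of any role. Mcm2 encodes a subunit of the helicase ring. Its log2 values were 7.78, 8.03, 8.03, 8.05 and 7.90 in controls 1 to 5 and 7.86, 7.67, 7.60, 7.73 and 7.74 in runners 1 to 5. Runner 1 lay above control 1, and the groups overlapped only through this pair of arrays. The difference was -0.24 ± 0.070 (SE), a level 1.18-fold lower in runners, with the smallest p of all members (unadjusted p = 0.0046 and adjusted p = 0.583, limma). Mcm5, of the same ring and with the E2F letters shown above, was at 7.35, 7.59, 7.66, 7.65 and 7.56 in controls 1 to 5 and at 7.56, 7.26, 7.17, 7.32 and 7.35 in runners 1 to 5. Runner 1 reached the level of control 5, and control 1 that of runner 5. The difference was -0.23 ± 0.082 (SE; limma adjusted p = 0.607). The other subunits differed by -0.25 (Mcm3), -0.20 (Mcm4) and -0.25 (Mcm6). Of the loading factors, Cdc6 differed by -0.23 ± 0.088 (SE) and Cdt1 by -0.15 ± 0.078 (SE), and Cdt1 alone of the 7 missed the unadjusted threshold.

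Of the fork and methylation genes, Uhrf1 was the more different. Uhrf1 binds newly copied, half-methylated DNA and brings the methyltransferase Dnmt1 to it. It stood at 7.03, 7.21, 7.26, 7.26 and 7.18 in controls 1 to 5 and at 7.14, 6.97, 6.69, 6.96 and 6.92 in runners 1 to 5. Runner 3 was the lowest of all arrays. The difference was -0.26 ± 0.080 (SE), 1.19-fold lower (limma adjusted p = 0.592). Pcna, the sliding clamp, stood at 7.99, 8.13, 8.19, 8.13 and 8.09 in controls 1 to 5 and at 8.27, 7.77, 7.81, 7.86 and 8.01 in runners 1 to 5. Runner 1 was above every control, while runners 2 to 4 lay below every control. The difference of -0.16 ± 0.089 (SE) had a limma adjusted p of 0.730. Among the genes of nucleotide supply, the reductase subunits Rrm1 and Rrm2 differed by -0.19 and -0.20 and the thymidylate synthase Tyms by -0.11, and 0 of the 3 had an unadjusted p under 0.05.

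Of the cyclin and Cdk1 genes, Ccnb2 had the smallest p of all mitosis members. Ccnb2 encodes cyclin B2, a partner of Cdk1. Its values were 8.03, 8.38, 8.38, 8.38 and 8.21 in controls 1 to 5 and 8.31, 7.78, 7.79, 8.03 and 7.92 in runners 1 to 5. Control 1 was level with runner 4, and runner 1 lay above control 5. The difference was -0.31 ± 0.10 (SE), 1.24-fold lower (unadjusted p = 0.0115 and adjusted p = 0.607, limma). Ccna2, the cyclin of S phase and early mitosis, differed by -0.26 ± 0.13 (SE) and Cdk1 by -0.21 ± 0.098 (SE).

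Kinase and passenger genes were lower by a median of 0.19, with an unadjusted p under 0.05 for 2 of 5, the passenger kinase Aurkb (-0.22) and Melk (-0.21). Plk1 and Aurka, kinases of spindle assembly, differed by -0.19 and -0.18. Birc5, which encodes survivin, the partner of Aurkb in the chromosomal passenger complex, had the largest p of all members. It stood at 5.89, 6.21, 6.23, 6.10 and 6.02 in controls 1 to 5 and at 6.23, 5.75, 6.00, 5.91 and 6.06 in runners 1 to 5. Runner 1 matched the highest control, and the groups overlapped over most of their range. The difference was -0.099 ± 0.092 (SE; limma adjusted p = 0.840). Among the checkpoint genes, Bub1 (-0.25), Bub1b (-0.24) and Ttk (-0.25) lay close together, and Cdc20, the activator of the ubiquitin ligase that ends the checkpoint, differed by -0.11. Bub1b and Ttk had an unadjusted p under 0.05. Of the kinetochore genes, which tie chromosomes to spindle fibres, Cenpf (-0.26) did, whereas Cenpe (-0.29), Ndc80 (-0.17) and Nuf2 (-0.19) did not.

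Spindle and midzone genes held both the largest difference and one of the largest p-values. Kif11, the motor that pushes the spindle poles apart, was lower by 1.26-fold, with values of 7.73 to 8.38 in controls and 7.52 to 8.17 in runners and a limma adjusted p of 0.676. Kif20a, a motor needed for cytokinesis, stood at 6.41, 6.85, 6.73, 6.94 and 6.75 in controls 1 to 5 and at 6.62, 6.53, 6.26, 6.56 and 6.35 in runners 1 to 5. Here runner 1 lay below controls 2 to 5, and control 1 alone caused the overlap. The difference was -0.27 ± 0.10 (SE; limma adjusted p = 0.607). Kif4, a motor on chromosome arms and in the midzone, stood at 6.05, 6.44, 6.29, 6.53 and 6.38 in controls 1 to 5 and at 6.31, 5.92, 5.87, 6.21 and 5.99 in runners 1 to 5. Runner 1 exceeded control 3, and control 1 fell between runners. The difference was -0.28 ± 0.10 (SE; limma adjusted p = 0.619). Nusap1, which bundles spindle microtubules, stood at 5.96, 6.50, 6.33, 6.59 and 6.34 in controls 1 to 5 and at 6.58, 6.06, 5.91, 6.36 and 6.01 in runners 1 to 5. Runners 1 and 4 lay among the controls and control 1 among the runners. The difference was -0.16 ± 0.14 (SE; limma adjusted p = 0.822). The other 4 of this role, Kif23, Prc1, Tpx2 and Hmmr, differed by -0.24 to -0.22 and had unadjusted p-values from 0.0604 to 0.135.

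Mki67 and Top2a, the most used proliferation markers of the list, were both lower on average. Mki67 encodes the Ki-67 antigen, which coats mitotic chromosomes. It stood at 10.14, 10.55, 10.24, 10.51 and 10.40 in controls 1 to 5 and at 10.47, 10.25, 9.74, 10.36 and 9.87 in runners 1 to 5. Only runners 3 and 5 lay below every control. The difference of -0.23 ± 0.14 (SE) was within the spread (unadjusted p = 0.119 and adjusted p = 0.758, limma). Top2a encodes the topoisomerase that untangles copied chromosomes. It stood at 7.61, 7.98, 7.91, 8.14 and 7.91 in controls 1 to 5 and at 8.02, 7.58, 7.42, 7.74 and 7.47 in runners 1 to 5. Runners 2, 3 and 5 lay below every control, and runner 4 below all but control 1. The difference was -0.27 ± 0.12 (SE), 1.20-fold lower (limma adjusted p = 0.687).

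Replication and mitosis genes were set against each other within each array, since their difference removes a shift common to both. The replication mean was 7.41 ± 0.12 (SD, n = 5) in controls. It was 7.21 ± 0.15 (SD, n = 5) in runners, and the means differed by -0.21 ± 0.084 (SE). The mitosis mean was 6.85 ± 0.16 (SD) and 6.62 ± 0.20 (SD), a difference of -0.23 ± 0.12 (SE). Replication minus mitosis ran from 0.48 to 0.62 in controls and from 0.50 to 0.68 in runners, and the difference between groups was 0.021 ± 0.044 (SE). Its size was below its error, so these arrays did not separate the sets by the wheel. Without runner 1 and control 1 the replication mean differed by -0.32, the mitosis mean by -0.37 and the contrast by 0.055.

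**Figure D4:**
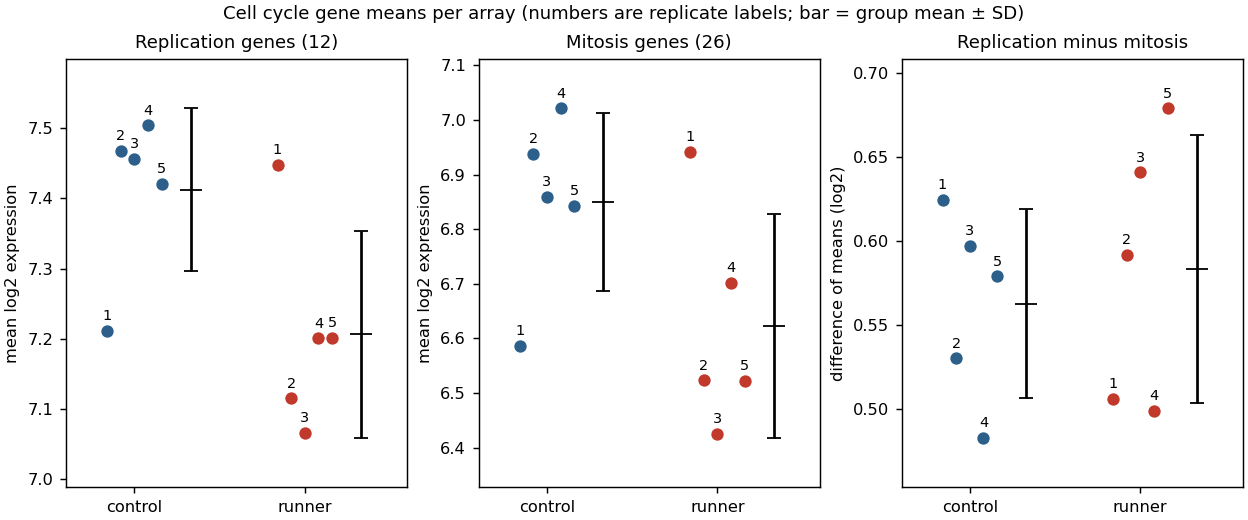
Mean log2 value of the 12 replication genes, of the 26 mitosis genes and their difference (y axes) in each array by group, with replicate labels beside the points and bars for the group mean and SD. In the first 2 panels control 1 sits among the runners and runner 1 among the controls, and in the third the groups overlap.

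Other genes of the cell cycle were taken from 4 lists. Of 30 other mitosis genes 30 were lower, 20 of them at an unadjusted p under 0.05, with a median of -0.21. They included Cenpa, the histone of the centromere (-0.21 ± 0.071 SE), and Cdc25c, the phosphatase that activates Cdk1 (-0.26 ± 0.090 SE). Of 23 measured other replication genes 23 were lower, but only 4 at that threshold, with a median of -0.11. DNA ligase I, Lig1, differed by -0.21 ± 0.062 (SE) and thymidine kinase, Tk1, by -0.22 ± 0.079 (SE). Of 18 regulators of the step into S phase 16 were lower, 7 at that threshold, with a median of -0.14, and Cdk6 (-0.35 ± 0.11 SE) and Cdk2 (-0.23 ± 0.071 SE), kinases that act on the retinoblastoma protein, had the smallest p. The 10 inhibitors of cyclin-dependent kinases went both ways, 5 lower and 5 higher, with a median of 0.0093. Cdkn1a, which encodes the p53 target p21, was at 7.38 to 7.68 in controls and 7.74 to 7.94 in runners, higher in every runner than in every control, runner 1 and control 1 included. Of all 29766 genes 113 had every runner above every control, and Cdkn1a was named for the smallest p of its list. The Cdkn1a difference of 0.32 ± 0.067 (SE) had a limma adjusted p of 0.370, and Cdkn2c differed by -0.19 ± 0.10 (SE). With limma 0 genes of these 4 lists passed the adjusted threshold, while 31 were lower and 1 higher at an unadjusted p under 0.05.

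In marker lists of red cells and neutrophils the same arrays stood at the ends. The mean of 10 erythroid genes ran from 7.79 to 8.25 in controls and from 7.63 to 8.15 in runners, with runner 1 highest and control 1 lowest of their groups. The mean of the 12 genes of the neutrophil precursor list ran from 8.20 to 8.56 and from 8.13 to 8.63, with the same arrays at these ends. That list is not limited to precursors, since it also holds genes of mature neutrophils such as Ly6g. Runner 1 lay 0.37 above the other runners in the erythroid list and 0.47 in the neutrophil list, and control 1 lay -0.31 and -0.25 from the other controls. All 10 erythroid and all 12 neutrophil genes had lower means in runners, and 2 of each had an unadjusted p under 0.05. These were Car1 (-0.31 ± 0.12 SE), Alas2 (-0.25 ± 0.10 SE), Ly6g (-0.39 ± 0.12 SE) and Prtn3 (-0.24 ± 0.087 SE). The part of these cells in the members' differences was not tested.

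Runner 1 was also the highest runner and control 1 the lowest control in the means of the B cell precursor, macrophage and T cell lists. In the osteoblast, hair cell, supporting cell and stria lists runner 1 was the highest runner, but control 1 was not the lowest control. Runner 1 lay 0.25, 0.26, 0.38 and 0.25 above the other runners there. In the megakaryocyte list only control 1 held its place, and in the muscle list neither array did. In the brain list the places were reversed, with runner 1 the lowest runner (8.22) and control 1 the highest control (8.47). Of 10 genes of B cell precursors 10 were lower, 8 at an unadjusted p under 0.05, with means of 6.02 to 6.45 in controls and 5.61 to 6.11 in runners (Cd79b -0.66 ± 0.11 SE, Vpreb3 -0.47 ± 0.090 SE). All 6 megakaryocyte genes were lower at that threshold, and their means did not overlap, at 7.96 to 8.36 in controls and 7.68 to 7.93 in runners (Ppbp -0.39 ± 0.076 SE, Pf4 -0.31 ± 0.080 SE). Of 8 osteoblast genes 7 were lower, 6 at that threshold, and Bglap and Bglap2, which are near-identical copies, were the genes called (-0.85 ± 0.066 SE and -0.95 ± 0.083 SE). The osteoblast means did not overlap either, at 7.98 to 8.24 and 7.53 to 7.89. Of 10 macrophage genes 9 were lower, 5 at that threshold, with means of 6.79 to 6.98 and 6.59 to 7.0 (Cx3cr1 -0.31 ± 0.061 SE, Ms4a7 -0.27 ± 0.080 SE). The 7 measured T cell genes had means of 4.70 to 4.77 and 4.66 to 4.95, and 6 of them were higher and 1 lower. At that threshold 0 were lower and 1 higher, Cd8a (0.17 ± 0.073 SE), followed in p by Cd3g (0.095 ± 0.069 SE), which missed it. The T cell means and all values of Ms4a7 lay below the array medians of 5.35 to 5.43, so these are differences between low signals.

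Markers of the labelled tissue were also lower in most cases. All 10 hair cell genes had lower means, 3 at an unadjusted p under 0.05, with means of 5.05 to 5.21 in controls and 4.80 to 5.18 in runners (Ocm -0.32 ± 0.12 SE, Slc26a5 -0.21 ± 0.090 SE). Of 9 supporting cell genes 8 were lower, 4 at that threshold, with means of 6.91 to 7.09 and 6.62 to 7.10 (Epyc -0.52 ± 0.15 SE, Otogl -0.41 ± 0.15 SE). Of 9 genes of the stria vascularis 7 were lower, 4 at that threshold, with means of 7.07 to 7.26 and 6.85 to 7.21 (Cldn11 -0.25 ± 0.064 SE, Tyr -0.37 ± 0.11 SE). The 9 measured brain genes had means of 8.28 to 8.47 in controls and 8.22 to 8.68 in runners, 7 of them higher and 0 at that threshold (Gabra6 0.24 ± 0.13 SE, Cbln1 0.15 ± 0.12 SE). The 8 muscle genes varied most within groups, with means of 8.11 to 8.89 and 8.09 to 9.12 (Myh1 -0.12 ± 0.19 SE, Tnnt3 -0.11 ± 0.20 SE). The hair cell means and all values of Slc26a5 and Tyr also lay below the array medians. RMA values have no zero, so the absence of a marker cannot be read from them. Whether the tissue taken for each array held unequal parts of these cell types was not tested.

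**Figure D5:**
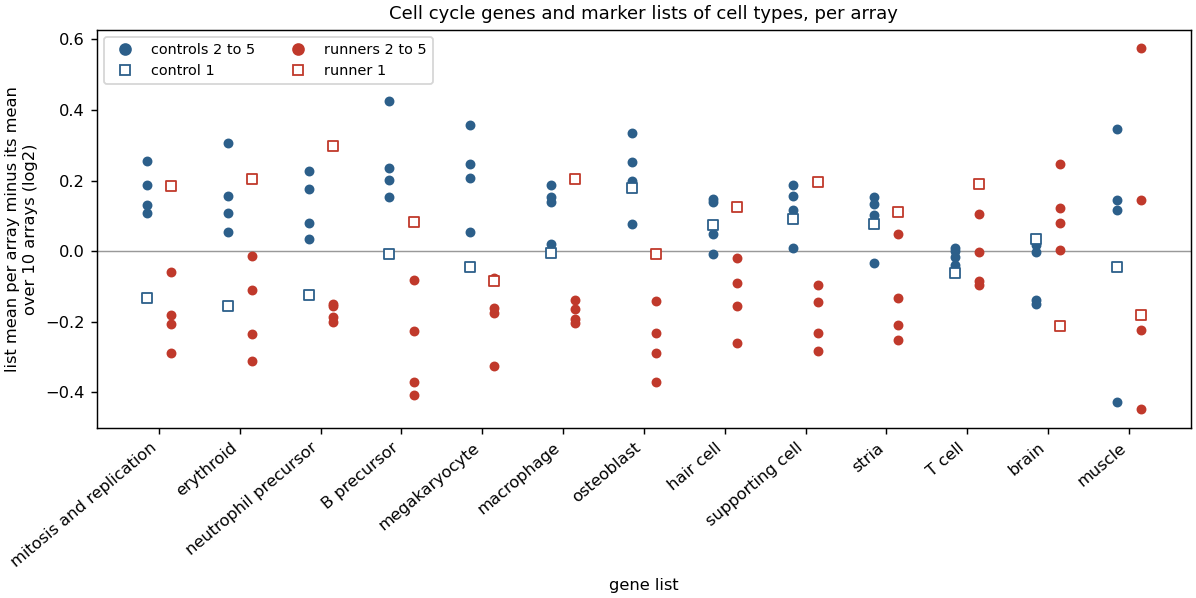
Mean log2 value of the 38 members and of 12 marker lists in each array minus the list's mean over the 10 arrays (y axis), by list (x axis), with controls in blue, runners in red and open squares for control 1 and runner 1. Runner 1 lies above control 1 for the members and for 8 of the marker lists (erythroid, neutrophil precursor, B precursor, T cell, macrophage, hair cell, supporting cell and stria), and below it for the megakaryocyte, osteoblast, brain and muscle lists.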

How the data were processed

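Total RNA, 100 ng per sample, was labelled (Affymetrix WT PLUS kit), as the labels' protocols state. The deposited values are log2 expression per probe set, and RMA and Partek are named per the submitters' processing notes. RMA makes array distributions nearly equal, so a shift shared by most genes cannot be seen. The sources used here name neither chip nor genome build nor filters. Array medians were 5.35 to 5.43, and the number of arrays limits precision.

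Of 39295 probe sets, 30130 had 1 symbol, 2146 several and 7019 none, and 827 symbols were updated to RefSeq names. The brightest probe set per gene left 29766 genes. Groups were compared with limma 3.58.1 under R 4.3.3 (lmFit, eBayes, group as sole term, two-sided, Benjamini-Hochberg over all genes, threshold 0.05), tested on simulated data. Figures used matplotlib 3.10.9 in Python 3.11.15. Members and lists were chosen with earlier results of these data known. Values per array are given for the 3 smallest p of each set, the 2 largest, and Mki67, Top2a, Pcna and Mcm2. Of each other list 1 or 2 genes are named with their differences. Alternatives, which left out genes under the 40th percentile of mean level or changed moderation, normalization, array weights, probe sets, replicate block and arrays, are in the closing section.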

Additional observations from a re-analysis of the deposited data

Results flagged for a closer look

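Of 84 sets of 5 values examined (each member and each mean of members in each group), 8 had an end value far from the rest. Chance flags about 1 in 20 sets, and these sets are not independent of each other. The gap to the nearest other array, as a share of the group's range, is given for each. Control 1 lay low in Mcm3 (0.798), Mcm4 (0.794), Mcm6 (0.767), Rrm1 (0.735) and the mean of the replication genes (0.716). Runner 1 lay high in Aurka (0.817), Bub1b (0.811) and Cdc20 (0.758). Among the flagged results the array set apart was control 1 in replication genes and runner 1 in mitosis genes. The means did not divide this way. Runner 1 lay 0.30 above the other runners in the replication mean and 0.40 in the mitosis mean. Control 1 lay -0.25 and -0.33 from the other controls. Whether the division among the flagged results exceeds chance was not tested.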

How the results depend on the processing

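All 38 members stayed below 0 in each of the 19 alternatives (nearest to 0, -0.040). The differences in the means over the members moved in each by less than 1 SD of the per-array means within groups. The largest move for all members, from -0.22 to -0.35 without runner 1 and control 1, was more than the standard error of 0.11. Median centring shifted the median of all genes to 0.024. The counts moved more. Genes called, 2 with all arrays, were 1 without moderation, 15 with array weights, 2 to 99 with 1 array left out (99 without runner 1) and 426 without runner 1 and control 1. Members lower at an unadjusted p under 0.05, 17 with all arrays, were 10 without moderation, 32 with array weights, 9 with the replicate block, 6 to 35 with 1 array left out and 38 without runner 1 and control 1. Of these counts, 6 came without runner 3 and without control 4, 7 without runner 2, 8 without control 2, 11 without runner 5, 31 without control 1 and 35 without runner 1. Of all genes 3.92% were lower at that threshold with all arrays, 3.71% without moderation, 3.44% with the replicate block and 7.10% with array weights. With 1 array left out 2.57% to 8.59% were (8.59% without runner 1, 4.54% without control 1), and without both 9.07%. Members called were 20 without both and 0 in every other alternative. Members whose groups did not overlap were 0 to 9 with 1 array left out (9 without runner 1, 5 without control 1) and 32 without both, where 3.33%, 1.17% and 5.98% of all genes had every runner below every control. Other cell cycle genes lower at an unadjusted p under 0.05, 31 with all arrays, were 17 without moderation, 20 with the replicate block, 12 to 45 with 1 array left out (12 without runner 3, 15 without control 4, 17 without control 2, 18 without runner 2, 20 without runner 5) and 52 without both. Of the 11 members given by array, 7 passed without both (Ccnb2 -0.46, Kif20a -0.39, Kif4 -0.41, Mcm2 -0.32, Mcm5 -0.34, Top2a -0.44, Uhrf1 -0.35), and 0 in the other alternatives. Runner 1 and control 1 are the end arrays of the members themselves, so leaving them out widens the members' difference by construction. Apart from the arrays left out, the causes of these moves were not tested.

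No sign was seen that replicate numbers pair the arrays: deviations of same-numbered arrays correlated at -0.25 to 0.277, and 1 of 5 runners correlated best with its own number. With 5 arrays per group such correlations cannot exclude a pairing. The block called 2 genes, as without it.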
